A study of Oryza sativa Japonica Group with 12 samples.

Results

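The comparison described here is between the basal shoot of wild-type rice seedlings at 11 days and at 7 days of hydroponic growth. Its members are the 6 wild-type arrays among the 12 arrays of the study, 3 at each age, and all 57194 probe sets of the Rice Genome Array that are not manufacturer's controls. The plants were of the cultivar Nipponbare and were grown in a nutrient solution with 1 mM ammonium as the nitrogen source. The bottom 5 mm of each shoot was cut for RNA. This segment holds the shoot apical meristem, the axillary buds, young leaf bases and the nodes from which crown roots emerge. The other 6 arrays are from plants homozygous for gs1;2, a mutation in the gene of the cytosolic glutamine synthetase 1;2, grown in the same solution for 7 or 11 days, 3 arrays each. They enter here through the shared estimate of the spread and through the test of whether the age difference changed with genotype. Replication was biological, at 3 samples per group, per the series' design text. Pooling of plants is not mentioned there.

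The basal shoot is where tillers, the side shoots of grasses, begin. Its buds are held back or released by strigolactone, auxin and cytokinin, and ammonium taken up by the roots is first built into glutamine and then into glutamate before it is used for growth. A seedling of this age also passes from seed reserves to its own photosynthesis.

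Several properties of the arrays go together with age. The titles of the 7 d arrays carry the word 3rd and those of the 11 d arrays the word 4th, with no meaning given, so that age and this label cannot be told apart. The growth text describes another lamp, a daytime temperature of 30.5 °C and 18 days of growth for samples 13 to 36, and the wild-type 11 d titles end in 13, 14 and 15, although their age is given as 11 days. Whether that text refers to these arrays is not stated. The gs1;2 11 d titles end in lower numbers, outside that range, so the text could set wild type apart from gs1;2 at 11 d. The labels used here give no hour of harvest. Pearson correlations between arrays were 0.9958 to 0.9968 within the wild-type 7 d group and 0.9964 to 0.9972 within the 11 d group, against 0.9784 to 0.9836 between them. The wild-type 11 d arrays also stood apart from both gs1;2 groups, at 0.9789 to 0.9853. The 3′ minus 5′ signal of the actin control was 4.31 to 4.57 log2 units at 7 d and 4.87 to 5.07 at 11 d, without overlap. That of cyclophilin was 0.91 to 0.92 at 7 d and 0.94 to 1.01 at 11 d, also without overlap, while the EF1a and GAPDH controls overlapped. The part of these properties in the differences below was not tested. In the gs1;2 11 d group, replicate 3 had a GLN1-2 signal of 11.4 log2 units against 8.37 and 8.65 in the other replicates.

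Of the 57194 probe sets, 18208 passed an adjusted p under 0.05 (limma, Benjamini-Hochberg over all probe sets), which is 31.8%. Of these, 8579 were higher at 11 d (15.0% of all) and 9629 were lower (16.8%). Most of the differences were small. The median absolute difference over all probe sets was 0.172 log2 units, and that of the probe sets that passed was 0.523. Larger differences were mostly increases: 1811 probe sets rose by at least 1 log2 unit and 966 fell by as much, 383 rose and 116 fell by at least 2, and 100 rose and 29 fell by at least 3. The share that passed grew with signal, from 5.32% among the dimmest 25% of probe sets to 61.3% among the brightest 25%. All 3 arrays of 11 d lay above all 3 of 7 d for 11066 probe sets (19.3%), and below them for 14060 (24.6%). With the brightest probe set taken for each of 17905 genes, 53.8% of genes passed, 25.5% higher and 28.4% lower, and this is the background for the gene lists. Over the 952 genes on the 42 lists, 260 rose (27.3%) and 240 fell (25.2%). In bulk tissue, fewer cells of a type and less RNA per cell cannot be told apart.

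**Figure D1:**
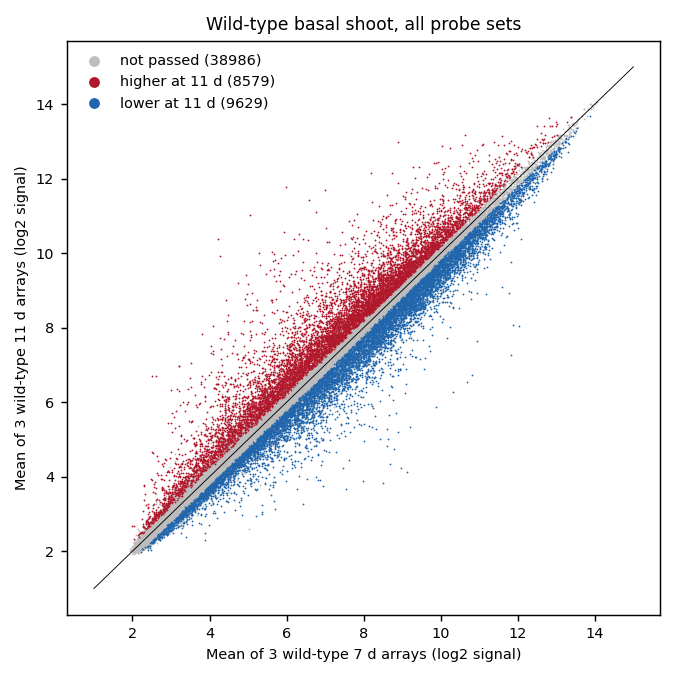
Mean log2 signal of 3 wild-type 11 d arrays (vertical axis) against that of 3 wild-type 7 d arrays (horizontal axis), 1 point per probe set, with red for higher and blue for lower at 11 d at an adjusted p under 0.05. The 18208 coloured points lie along the whole range of signal, and the points farthest from the diagonal are mostly red.

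The genes that increased most among those with an informative name included enzymes that act on polysaccharides. Cht4 (LOC4336263), a chitinase, had log2 signals of 3.98, 5.01 and 5.19 at 7 d and 9.21, 9.42 and 8.97 at 11 d. It rose by 4.47 ± 0.57 (SE), or 22.2-fold (adjusted p = 6.9e-05). Cht5 (LOC4336265), a chitinase gene with no other protein-coding gene between it and Cht4 in the gene table, read 5.39, 5.74 and 5.95 at 7 d and 9.88, 10.06 and 9.49 at 11 d, a rise of 4.12 ± 0.3. Neither gene's arrays overlapped between ages, as for 19.3% of all probe sets in that direction, and similar sequences can share probe signal. RIXI, a xylanase inhibitor related to chitinases, rose by 3.64 ± 0.45, from a mean of 4.97 to 8.61. On the defence list, 7 of 24 genes rose and 3 fell (1 without 7 d replicate 3 or 11 d replicate 3), with a median difference of 0.37. The share of this list that passed was 41.7%, below the 53.8% of all genes. RC24, another chitinase, rose by 1.96, and the neighbouring Cht-3 rose by 1.4. GER5, a germin-like protein gene, fell by 2.23 ± 0.37.

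In gs1;2, Cht4 and Cht5 rose by 4.4 and 4.14. The difference between the genotypes was 0.07 ± 0.81 for Cht4 and -0.02 ± 0.42 for Cht5 (adjusted p = 0.97 and 0.979), an estimate whose standard error leaves room for differences of either sign.

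**Figure D2:**
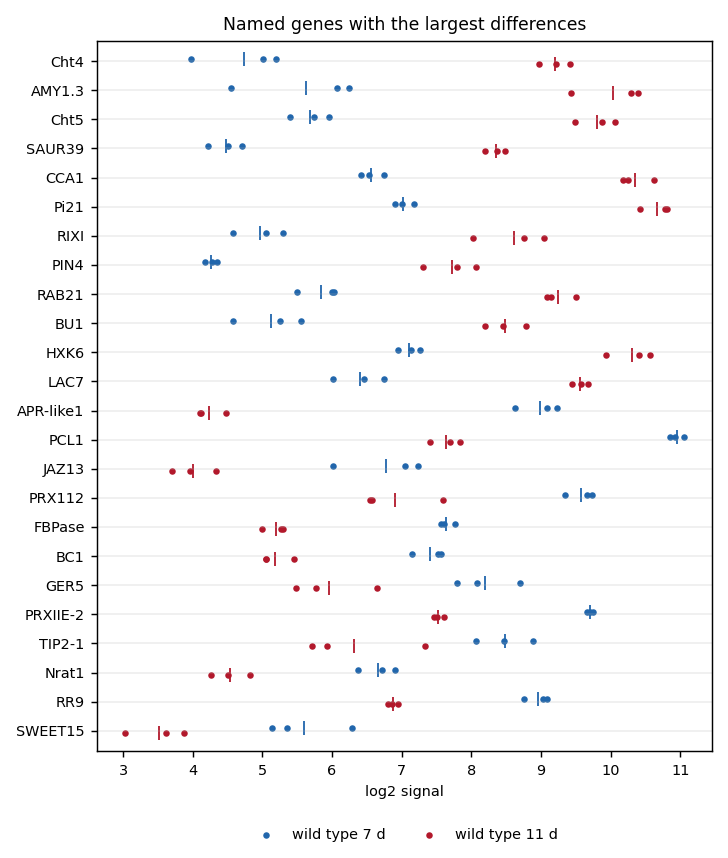
Log2 signal of each wild-type array at 7 d (blue) and 11 d (red) for the 12 largest increases and the 12 largest decreases among named genes, with vertical ticks at the means of 3 arrays. Cht4 and APR-like1 stand at the extremes, with differences of 4.47 and -4.75.

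Of 48 genes of starch and sucrose, 9 rose and 11 fell (41.7% passed, below the 53.8% of all genes), with a median difference of 0.05. Of those that passed, 4 rose and 1 fell by at least 1 log2 unit. AMY1.3, an alpha-amylase that breaks down starch, read 4.55, 6.25 and 6.07 at 7 d and 9.43, 10.29 and 10.4 at 11 d, a rise of 4.42 ± 0.43 (adjusted p = 1.04e-05). Its second probe set, dimmer at 3.31 and 3.79, rose by only 0.48. The adjacent AMY1.4 differed by 0.12 and did not pass. HXK6, a hexokinase, read 7.14, 7.26 and 6.94 at 7 d and 9.94, 10.57 and 10.41 at 11 d, a 9.15-fold rise. SUS4, a sucrose synthase, rose by 2.24 ± 0.14, whereas SUS3, of the same family, fell by 0.88 ± 0.13.

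Among sugar transporters, 5 of 18 rose and 2 fell (38.9% passed, below the 53.8% of all genes). SUT1, which loads sucrose into the phloem, read 7.68, 7.86 and 8 at 7 d and 9.99, 10.15 and 10 at 11 d, a rise of 2.2 ± 0.15 (adjusted p = 9.9e-07). SWEET14, a sucrose exporter, rose by 2.75 ± 0.24, and its second probe set rose by 2.83. SWEET15 moved the other way, from 6.28, 5.14 and 5.35 to 3.03, 3.62 and 3.87, a fall of 2.08. Both pyruvate orthophosphate dikinase genes on the list rose, PPDK2 by 2.04 ± 0.13 and PPDKB by 1.65 ± 0.15. The list of pyruvate and citrate cycle genes otherwise held small decreases, with 3 of 22 higher, 9 lower and a median of -0.25. Of this list 54.5% passed, near the share of all genes.

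Of the 21 genes of nitrogen assimilation and transport, 2 rose and 5 fell, with a median difference of -0.11. The share that passed was 33.3%, below the 53.8% of all genes. GDH2, a glutamate dehydrogenase, read 9.02, 9.02 and 8.6 at 7 d and 11.63, 12.13 and 11.89 at 11 d, a rise of 3 ± 0.15 (adjusted p = 1.98e-07). Its other probe sets rose by 2.96 and 3.28. GLT2, an NADH-dependent glutamate synthase, rose from 4.05, 4.18 and 3.75 to 4.84, 5.67 and 5, by 1.18 ± 0.18. The other glutamate dehydrogenase genes listed, GDH and GDH3, differed by -0.07 and 0.04 and did not pass.

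GLN2, the chloroplast glutamine synthetase, read 10.04, 9.89 and 9.84 at 7 d and 8.57, 8.65 and 8.59 at 11 d. It fell by 1.32 ± 0.08 (adjusted p = 5.73e-07), and the ferredoxin-dependent glutamate synthase Fd-GOGAT fell by 0.4 ± 0.08. The cytosolic glutamine synthetases did not pass: GLN1-1 differed by -0.21 ± 0.08, GLN1-2 by 0.07 and GLN1-3 by -0.11. The standard error of GLN1-2 was 0.57, since its spread includes the gs1;2 arrays, while its 6 wild-type arrays lay between 12.31 and 12.5. NIA1, a nitrate reductase, fell from 5.48, 5.53 and 5.34 to 4.2, 3.6 and 3.6, although its second probe set differed by 0.08 and did not pass.

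Among the 8 ammonium transporters listed, AMT3-2 and AMT3-3 fell and the other 6 did not pass. AMT3-2 read 8.05, 7.97 and 8.17 at 7 d and 6.45, 5.82 and 7.36 at 11 d, a fall of 1.52 ± 0.45 (adjusted p = 0.0195). The 11 d arrays of this gene spread over more than 1 log2 unit, and it passed in 9 of 12 fits that left out 1 array each, with adjusted p up to 0.0883 when 7 d replicate 3 or 11 d replicate 1 or 2 was left out. AMT3-3 passed in 10 of these fits, not without 7 d replicate 1 or 11 d replicate 3 (adjusted p up to 0.0579). The nitrate transport genes NRT2.2, NRT2.3 and NAR2.2 differed by -0.3, -0.24 and 0.11, and none passed.

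**Figure D3:**
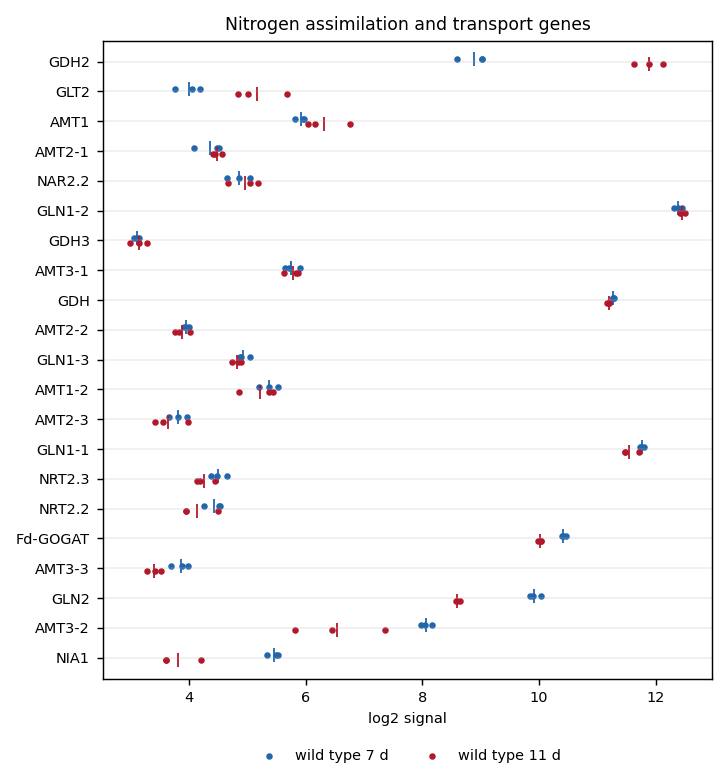
Log2 signal of each wild-type array at 7 d (blue) and 11 d (red) for the 21 genes of nitrogen assimilation and transport, ordered by their difference, with ticks at the means of 3 arrays. GDH2 is set apart at the top with a difference of 3, and most of the transporters overlap.

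Genes of cytokinin signalling moved in both directions. Type-A response regulators are induced by cytokinin and dampen its signal. All 6 that the annotation names fell, by 0.88 to 2.08 log2 units, and their median difference was -1.49. RR9 read 9.03, 8.75 and 9.08 at 7 d and 6.81, 6.86 and 6.94 at 11 d (-2.08 ± 0.16, adjusted p = 2.4e-06). RR4 read 8.27, 8.08 and 8.4 at 7 d and 6.82, 6.54 and 6.3 at 11 d. RR6 had the smallest difference, -0.88 ± 0.09, without overlap between ages, as had 24.6% of all probe sets in that direction. The type-B regulators, transcription factors that carry the cytokinin signal to genes, had 3 of 5 higher and none lower. RR21 rose by 0.8 ± 0.07 and RR23 by 0.69 ± 0.09.

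Of 19 genes of cytokinin synthesis, activation, breakdown and sensing, 8 rose and 5 fell. LOGL3, which by its family releases active cytokinin from its nucleotide, read 9.13, 9.23 and 8.89 at 7 d and 11.3, 11.63 and 11.6 at 11 d, a rise of 2.42 ± 0.22. LOGL9, LOGL5 and LOGL6 rose by 1.73, 1.12 and 0.9, while LOGL1 and LOGL7 of the same family fell by 0.42 and 0.44. CKX3, a cytokinin oxidase that breaks the hormone down, fell by 1.17 ± 0.16, whereas CKX5 and CKX11 rose by 0.51 and 0.45. The receptor gene HK4 fell by 0.72 ± 0.12, whereas HK5 and HK3 rose by 0.67 and 0.66.

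Of the 7 genes of strigolactone and tillering, 5 rose and 2 fell. D14, the strigolactone receptor, read 10.34, 10.59 and 10.6 at 7 d and 12.2, 12.41 and 12.38 at 11 d, a rise of 1.82 ± 0.18 (adjusted p = 1.1e-05). D3, the F-box protein that acts with D14, rose by 1.04 ± 0.15. IPA1, a transcription factor that limits tiller number, rose by 0.92 ± 0.13. For strigolactone synthesis, CCD7 rose by 0.65 and CCD8A fell by 0.52. LAX1, needed for axillary meristems, fell by 0.45, with overlapping arrays. It passed in 8 of 12 leave-one-out fits, not without 7 d replicate 1 or 3 or 11 d replicate 2 or 3 (adjusted p up to 0.0984).

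On the auxin list, 27 of 59 genes rose and 10 fell, with a median difference of 0.22. SAUR39, a small auxin-up RNA, read 4.5, 4.22 and 4.7 at 7 d and 8.19, 8.48 and 8.37 at 11 d, a 14.7-fold rise (adjusted p = 1.17e-06). PIN4, of the auxin efflux carrier family, rose from 4.17, 4.27 and 4.35 to 7.3, 8.06 and 7.8, by 3.45 ± 0.2. Its relative PIN5 fell by 1.75 ± 0.15. IAA9 and IAA2, of the Aux/IAA repressors, rose by 2.08 and 1.33. BU1, a helix-loop-helix protein of brassinosteroid responses, rose by 3.35 ± 0.38.

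Abscisic acid (ABA) is the hormone of water deficit, and some PP2C phosphatases and SAPK kinases act in its signalling. Of 69 genes listed by these and related names, 32 rose and 10 fell, with a median of 0.18. The list is mostly the PP2C family as a whole, many of whose members are not known for ABA signalling. Of its 55 PP2C genes, 25 rose and 8 fell, and of 10 SAPK genes, 5 rose and 2 fell. PP2C61 rose by 2.63 ± 0.16 and SAPK1 by 1.33 ± 0.13. Of 18 genes of ABA metabolism and dehydration, 7 rose and 4 fell, but 4 rose without 11 d replicate 1, and 2 fell without 7 d replicate 1 or 3 or 11 d replicate 1 or 2. RAB21, a dehydrin, read 6, 6.03 and 5.49 at 7 d and 9.5, 9.08 and 9.15 at 11 d, a rise of 3.4 ± 0.34, and its second probe set rose by 3.85. RAB16B, next to it in the gene table, rose by 1.18 ± 0.2, while the adjoining RAB16C and RAB16D differed by -0.14 and 0.01 and did not pass. Of the DREB1 factors of cold responses, DREB1E fell by 1.69, DREB1G by 1.8, DREB1B by 0.65 and DREB1C by 0.41 (adjusted p = 0.039 for DREB1C). DREB1A differed by -0.09 and did not pass. In DREB1E, DREB1G and DREB1B, 11 d replicate 3 lay nearest to the 7 d arrays. DREB1B passed in 2 of 12 leave-one-out fits (those without 11 d replicate 3 or gs1;2 11 d replicate 1), with adjusted p up to 0.192 in the others.

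Genes of DNA replication were mostly lower at 11 d. In their list, 25 of 30 genes fell, 1 rose, and the median difference was -0.67. RPA70b, a subunit of the protein that coats single-stranded DNA, read 11.02, 10.95 and 10.94 at 7 d and 9.93, 9.55 and 9.64 at 11 d, a fall of 1.26 ± 0.11 (adjusted p = 5.21e-06). The helicase subunits MCM4 and MCM7 fell by 1 and 1.1, and ORC3, of the origin recognition complex, fell by 1.24. All 5 H2B histone genes on the list fell, by 0.28 to 0.7, though near-identical copies can share probe signal.

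Among 36 cell cycle genes, 17 fell and 11 rose, with a median of -0.18. The D-type cyclin CYCD2-2 fell by 1.14 ± 0.12, and CYCA3-2 and CYCD3-2 fell by 0.74 and 0.76. Other cyclins, CYCD5-2 and CYCA1-4, rose by 0.64 and 0.48. KRP6 and SMR1, inhibitors of cyclin-dependent kinases, rose by 1.34 ± 0.13 and 1.09 ± 0.11. Of the other KRP inhibitors listed, KRP4 rose by 0.3, KRP5 fell by 0.56 and KRP1 did not pass. Ribosomal protein genes had 15 of 24 members lower, none higher, and a median of -0.25. The class I KNOX gene OSH1, expressed in the shoot meristem, did not pass, at 11.52 and 11.55. OSH71 and OSH3 rose by 0.48 and 0.55, and OSH3 passed in 8 of 12 leave-one-out fits, not without 7 d replicate 1 or 2 or 11 d replicate 1 or 3 (adjusted p up to 0.105).

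Among cell wall genes, those on the cellulose and xylan list were lower in larger numbers than higher. In this list, 22 of 42 genes fell and 6 rose, with a median of -0.31. It also holds cellulose synthase-like (CSL) genes, such as CSLF6, and of the 6 that rose all but GT43G were CSL genes. The share that passed was 66.7%, against 53.8% of all genes. BC1, a COBRA-like protein needed for cellulose in secondary walls, read 7.15, 7.52 and 7.57 at 7 d and 5.45, 5.05 and 5.05 at 11 d, a fall of 2.23 ± 0.16 (adjusted p = 1.81e-06). The cellulose synthase gene CESA6 fell by 1.2 ± 0.14. CSLF6, which makes the mixed-linkage glucan of grass walls, fell by 1.41 ± 0.1, although 2 dimmer probe sets of it differed by -0.14 and 0.16 and did not pass.

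Of 32 genes of lignin and phenylpropanoids, 10 fell and 5 rose, and 46.9% passed, below the 53.8% of all genes. The laccase gene LAC7 rose from 6.01, 6.46 and 6.74 to 9.44, 9.67 and 9.57, by 3.16 ± 0.26, whereas LAC23, LAC4 and LAC10 fell by 1.38, 1.24 and 1.11. Of 30 genes of wall loosening, 6 rose and 7 fell, and 43.3% passed, also below that share. EXLA1 and EXLA2, expansin-like genes, rose by 2.54 and 1.42, and the expansin EXP5 fell by 1.06. Of 3 class III peroxidases, 2 fell and none rose. PRX112 fell by 2.67 ± 0.22, but a second probe set of it differed by -0.12 and did not pass.

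Clock genes changed in opposite directions. CCA1, a transcription factor that peaks around dawn, read 6.74, 6.53 and 6.42 at 7 d and 10.63, 10.25 and 10.18 at 11 d, a rise of 3.79 ± 0.14 (adjusted p = 6.86e-08). Its second probe set, at 3.18 and 3.08, did not pass. PCL1, of the evening complex, read 10.85, 10.92 and 11.06 at 7 d and 7.4, 7.69 and 7.83 at 11 d, a fall of 3.31 ± 0.13. PRR95, PRR73 and PRR37, pseudo-response regulators of the clock, rose by 1.54, 0.86 and 0.55, while GI and PRR1 did not pass. Since these genes cycle over the day and the hour of harvest is not in the labels used here, age and hour cannot be told apart.

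Of 14 genes of photoperiod perception and flowering, 7 rose and none fell, so that the share that passed was slightly below the 53.8% of all genes. The phytochrome genes PHYA, PHYC and PHYB rose by 0.93, 0.63 and 0.44. MADS18 rose by 1.13, and over the MADS list 6 of 31 genes rose and none fell, a smaller share than that of all genes. Among 20 genes of photosynthesis and chlorophyll, 8 fell and 2 rose (4 without 7 d replicate 1), with a median of -0.25. Of this list, too, the share that passed was slightly below the 53.8% of all genes. The protochlorophyllide reductase gene PORB fell by 1.05 ± 0.1 and the plastocyanin gene PETE by 0.94 ± 0.12. LIR1, a light-induced gene, rose by 1.51 ± 0.27, and the light-harvesting gene CAB2R, at 12.96 and 13.18, did not pass.

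**Figure D4:**
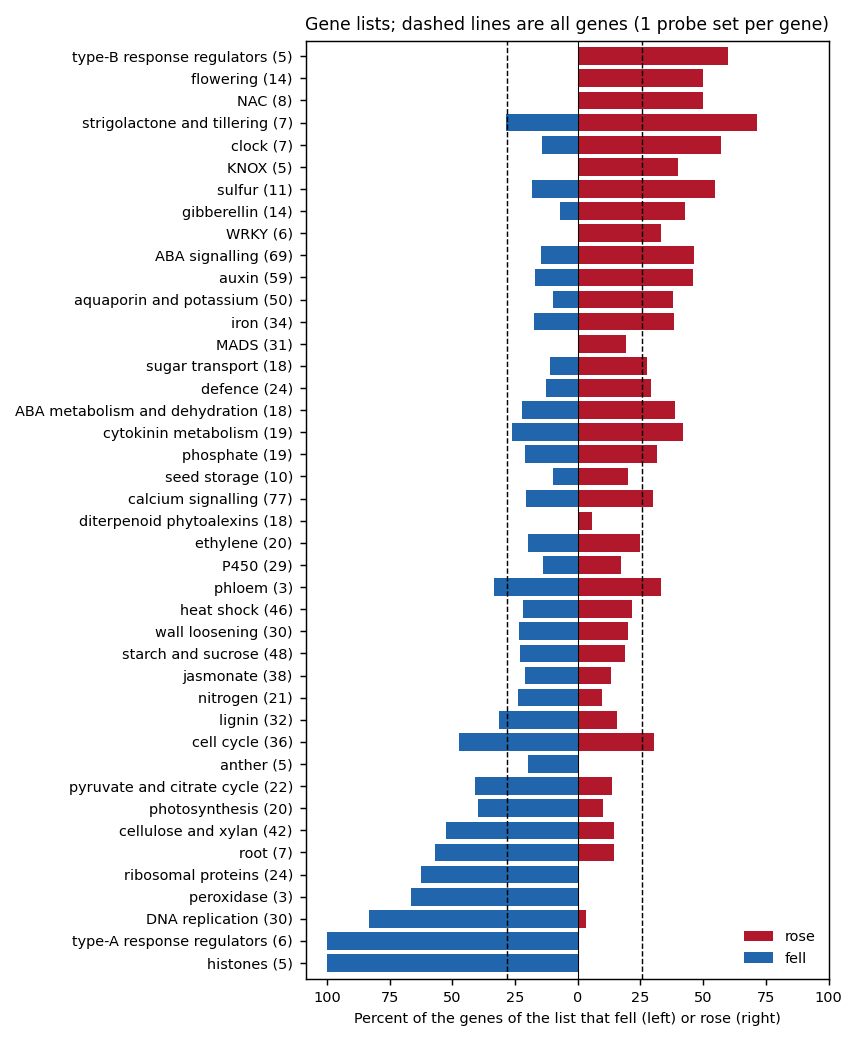
Percent of the genes of each list that fell (blue, to the left) or rose (red, to the right) between 7 and 11 d in wild type, with the number of genes in brackets and dashed lines at 28.4% and 25.5%, the shares of all genes. The histone, type-A response regulator and DNA replication lists extend farthest to the left.

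The sulfur list had 6 of 11 genes higher and 2 lower, the latter 1 without any of the 7 d replicates or 11 d replicate 3. SAT1 rose from 7.83, 7.68 and 7.6 to 10.05, 10.58 and 10.5, by 2.68 ± 0.23. APR-like1, on this list by its name, had the largest fall of any named gene, from 9.08, 9.23 and 8.63 to 4.47, 4.1 and 4.12. That is -4.75 ± 0.41, or 26.9-fold lower (adjusted p = 4.92e-06), and a second probe set of the gene fell by 3.43 while another, at 4.96 and 4.7, did not pass. For iron, 13 of 34 genes rose and 6 fell (55.9% passed, near the 53.8% of all genes). The metal-nicotianamine transporter genes YSL12, YSL15 and YSL13 rose by 1.14, 1.07 and 1.03, and NAS3, a nicotianamine synthase, fell by 1.05. For phosphate, 6 of 19 genes rose and 4 fell (52.6% passed, also near that share). SPX1, SPX2 and SPX3, sensors whose transcripts are known to increase under phosphate shortage, fell by 1.03, 0.9 and 0.92. SPX4 and SPX5, of the same family, rose by 0.89 and 0.68, SPX5 at a low signal (means 3.31 and 3.99). The transporter gene Pht1;1 rose by 1.33.

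Of 50 aquaporin and potassium transport genes, 19 rose and 5 fell (3 without 11 d replicate 3). The share that passed was 48.0%, against 53.8% of all genes. The potassium transporter genes HAK10 and HAK7 rose by 2.13 ± 0.17 and 1.28 ± 0.09, and the aquaporin gene PIP2;5 rose by 2.06 ± 0.33. TIP2-1, a vacuolar aquaporin, fell by 2.15 ± 0.59, with 11 d arrays at 5.71, 7.34 and 5.92. It passed in 9 of 12 leave-one-out fits, not without 7 d replicate 1 or 11 d replicate 1 or 3 (adjusted p up to 0.0562). Among 77 calcium signalling genes, 23 rose and 16 fell, shares near the background. CML4 and CIPK10 rose by 2.14 and 1.74, and CIPK6 fell by 1.87. Of 46 heat shock genes, 10 rose and 10 fell (43.5% passed, below the share of all genes). HSP17.9A rose by 2.05 ± 0.2, and HSP16.9B fell by 0.98 ± 0.2.

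In the NAC family, 4 of 8 genes rose and none fell, so that the share that passed was slightly below the 53.8% of all genes. SNAC2 read 6.62, 6.87 and 6.33 at 7 d and 9.02, 9.14 and 9.19 at 11 d, although 2 dimmer probe sets of it did not pass. Among 6 WRKY genes, 2 rose (33.3% passed, below the share of all genes). WRKY62 rose by 2 ± 0.37, while WRKY24 (0.94 ± 0.33, adjusted p = 0.0466) passed in 3 of 12 leave-one-out fits, with adjusted p up to 0.163. Those 3 were the fits without 11 d replicate 3 or without gs1;2 11 d replicate 2 or 3. For gibberellin, 6 of 14 rose and 1 fell, a share slightly below that of all genes, and the synthesis gene D35 rose by 1.33. For ethylene, 5 of 20 rose and 4 fell (2 without 7 d replicate 1 or 3 or 11 d replicate 1 or 2), and the receptor gene ETR2 rose by 0.86. Of the ethylene list, a smaller share passed than of all genes. The ethylene list also holds DREB factors. The 4 that fell were DREB1B, DREB1C, DREB1E and DREB1G, given above, and DREB2B was among the 5 that rose. For jasmonate, 5 of 38 rose and 8 fell (34.2% passed, below the 53.8% of all genes). JAZ13, a repressor of jasmonate responses, fell from 7.24, 7.04 and 6.02 to 3.96, 4.33 and 3.7, by 2.77 ± 0.52. Of 29 cytochrome P450 genes, 5 rose and 4 fell, also a smaller share than that of all genes. Of 18 genes of diterpenoid phytoalexin synthesis, only D35, shared with the gibberellin list, passed.

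Markers of other tissues were looked at because the cut segment can hold them. Of 7 root markers, 4 fell and 1 rose. SCR1, SHR1, Lsi1 and QHB fell by 1.62, 0.52, 0.5 and 0.41, while WOX11, which drives crown root emergence, rose from 6.58, 7.21 and 7.62 to 9.03, 9.26 and 9.07. Of 3 phloem markers, SUT1 rose and FTIP1 fell by 0.29, the latter in 7 of 12 leave-one-out fits (not without any of the 7 d replicates or 11 d replicate 2 or 3, adjusted p up to 0.145). Of 10 seed storage genes, GLUA-2 and GLUA-1 rose by 2.08 and 0.68 and GLB fell by 0.46. GLUA-1 was dim, with means of 3.02 and 3.71, and a second GLUA-2 probe set did not pass. Of 5 anther markers, MSP1 fell by 0.43, and the other 4 lay between 2.82 and 4.17 and did not pass. The part of tissue composition in the differences was not tested.

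The largest differences of any probe set included genes with no informative name. LOC4338611 rose by 6.17 ± 0.4 and, on a second probe set, by 5.64 ± 0.36. LOC4345968 and LOC4324857 rose by 5.98 and 5.79, the latter to 11.57, 11.96 and 11.8 at 11 d. LOC4346725 and LOC4348121 fell by 4.67 and 4.55. The largest fall, 5 ± 0.84, was of a probe set with no gene in the annotation.

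The age difference was compared with that in gs1;2 to see where it changed with genotype. If the growth text on another lamp refers to the wild-type 11 d arrays alone, genotype and growth condition cannot be told apart here. In gs1;2, 4846 probe sets passed (8.47%), 2067 higher (3.61%) and 2779 lower (4.86%). The difference between the age differences passed for 11780 probe sets (20.6%), with the wild-type value higher for 6135 (10.7%) and lower for 5645 (9.87%). This test contains the wild-type age difference, so overlap with the probe sets that passed in wild type is in part built in. Of the probe sets that passed in wild type, 10150 also passed this test. The 6 listed type-A response regulators did so: 4 of them rose in gs1;2 and RR5 fell. RR9 rose by 0.85 there, and the genotypes differed by -2.93 ± 0.23 in its age difference (adjusted p = 1.3e-05). GDH2 differed by -0.34 in gs1;2 and did not pass, and its age difference was 3.34 ± 0.21 higher in wild type. In the replication list, 3 of 30 genes fell in gs1;2 and the test between genotypes passed for 19.

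**Figure D5:**
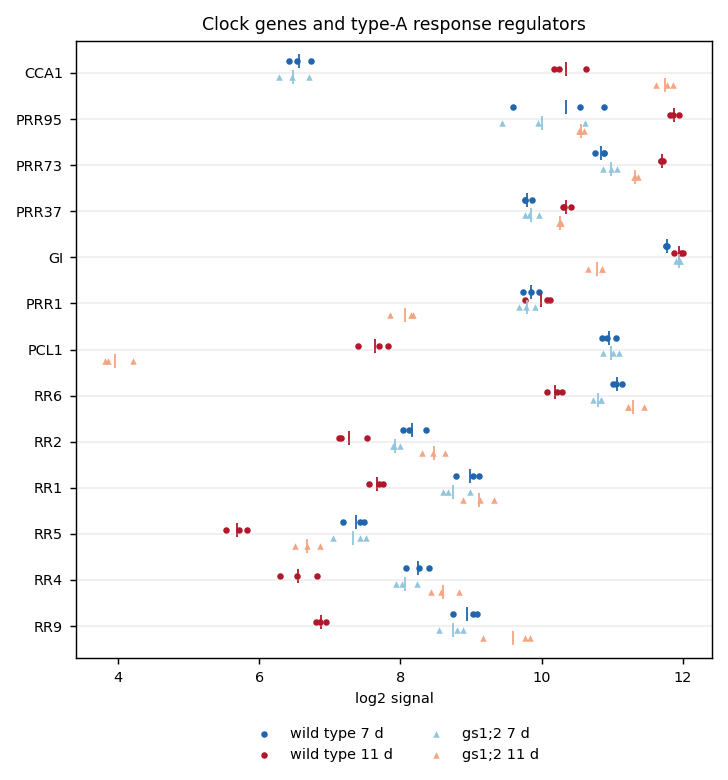
Log2 signal of each array for 7 clock genes and 6 type-A response regulators in wild type (circles) and gs1;2 (triangles) at 7 d (blue shades) and 11 d (red shades), with ticks at the means of 3 arrays. The wild-type 11 d circles of RR9 lie at 6.81 to 6.94, below the other 3 groups, and PCL1 is lower at 11 d in both genotypes.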

How the data were processed

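Total RNA was labelled with the GeneChip 3′ IVT Express kit and hybridised to the Affymetrix Rice Genome Array, per the labels' protocols. The authors deposited log2 values made with RMA and R 3.1.0, per the submitters' processing notes. These log2 values were used as deposited, without the AFFX and RPTR controls. A group mean model over 12 arrays was fitted with limma 3.58.1 in R 4.3.3 (lmFit and eBayes, 8 residual degrees of freedom), with Benjamini-Hochberg adjustment over 57194 probe sets. The model was also run on simulated data with known changes in few probe sets. That run cannot test the calls made here, where many more probe sets passed and age goes together with other properties. Differences are on the log2 scale. A gene is shown by its probe set with the highest mean, and 22436 probe sets had 1 gene. Symbols were taken from RefSeq gene names (assembly ASM3414082v1). Array probes of different genes are not compared in level, and 12 arrays limit the precision. Named genes were the 12 largest passed increases and decreases with an informative name, all members of the clock and nitrogen lists, up to 6 passed members of each other list by size, the 6 largest genotype changes each way, the 5 largest probe sets each way, and genes crossing from below 5 to at least 8 or back; members named that did not pass, and a few smaller members, were added after their values were seen. The members and lists were chosen with earlier results of these data known. Alternatives were other moderation, scaling, weights, thresholds and leaving out arrays.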

Additional observations from a re-analysis of the deposited data

Results flagged for a closer look

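For 21 genes the age difference in wild type differed from that in gs1;2 by the test of the difference itself (limma, adjusted p under 0.05). They are the 6 largest each way among named genes and the clock and nitrogen genes that passed. The value given is the wild-type minus the gs1;2 age difference, in log2 units. It was 5.59 for AMY1.3, 4.36 for SAUR39, 3.81 for HSF03, 3.73 for PCL1, 3.52 for BU1 and 3.43 for BBD1. It was -7.76 for APR-like1, -3.31 for BC1, -2.96 for AMT1-2, -2.93 for RR9, -2.9 for SWEET15 and -2.87 for NAS1. APR-like1 fell in wild type and rose by 3.01 in gs1;2, and BC1 fell in wild type and rose by 1.09 in gs1;2. HSF03, BBD1, AMT1-2 and NAS1 did not pass in wild type: their gs1;2 age differences were -3.44, -3.34, 2.82 and 2.81.

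Among clock genes the value was -1.49 for CCA1, 0.51 for PRR73, 1.33 for GI and 1.87 for PRR1. CCA1 rose and PCL1 fell in both genotypes, by 5.27 and 7.03 in gs1;2. The labels used here give no hour of harvest for either genotype, so genotype and hour cannot be told apart for clock genes. Among nitrogen genes the value was 3.34 for GDH2, 2.38 for GLT2, -0.45 for GLN1-1, -0.73 for GLN2 and -2.39 for NIA1. Without gs1;2 11 d replicate 3, all 21 still passed, and no value moved by more than 0.3.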

How the results depend on the processing

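With each array left out in turn, 15302 to 18576 probe sets passed for age in wild type (7377 to 8722 higher, 7872 to 9854 lower), 9610 to 12187 for the change with genotype (5078 to 6232 higher, 4490 to 5955 lower) and 3307 to 4794 for age in gs1;2 (1352 to 2071 higher, 1771 to 2723 lower). The number higher in gs1;2 fell to 1352 without gs1;2 11 d replicate 1, and the number lower to 1771 without gs1;2 7 d replicate 3. A difference of at least 1 log2 unit besides the adjusted p left 2777 in wild type (1811 higher, 966 lower), 3133 for the change with genotype (1942, 1191) and 753 in gs1;2 (423, 330). The test against a change of 0.5 left 3295 (2097, 1198), 2160 (1408, 752) and 412 (211, 201). With arrays set to a common median, more probe sets were higher in wild type (9041) than lower (8458), the opposite of the order in the deposited scaling; the median of all probe sets moved from -0.043 to -0.017. Of 214 named genes that passed, 199 did so in all 12 leave-one-out fits. Second probe sets with the opposite sign, none past the threshold, were those of CCA1 (-0.09), SNAC2 (-0.07 and -0.04), GLUA-2 (-0.09), Pht1;1 (-0.02), NAC076 (-0.01), PSAG (-0.16), GID1 (-0.02), rbcS (0.03), CYP71P1 (0.03), CSLF6 (0.16) and NIA1 (0.08). The cause of these changes was not tested. No paired analysis was possible because the wild-type 7 d and 11 d titles share no replicate number. Signals of dim probe sets limit what can pass.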
